A study of Mus musculus with 6 samples.

Results

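The Fox and Sox genes encode 2 large families of DNA-binding transcription factors, and their messenger RNA was compared between mouse cells with and without induced HOXA13. The set held every listed symbol made of Fox, a letter from a to s and a number, or of Sox and a number, apart from Foxa1, Foxa2, Foxd1, Foxn1, Sox2 and Sox17, which were left out. This gave 57 of the 24393 listed genes, 40 of them Fox and 17 Sox. At least 1 read was counted for 54 of them, and 37 (24 Fox and 13 Sox) had enough counts to be tested.

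All 6 libraries came from KH2 mouse embryonic stem cells, a doxycycline-inducible line that the labels give the strain C57/BL/6, and they formed a CONTROL group of 3 and a HOXA13 group of 3. Per the study's methods, both groups were differentiated towards definitive endoderm, the germ layer of the gut lining, on M15 cells (a feeder line derived from mesoderm) with Activin-A, bFGF, CHIR and Noggin. Human HOXA13 with a FLAG tag, a homeobox gene of the hindgut, was carried by correctly targeted clones and was switched on from day 4 with doxycycline at 1.25 µg/ml. Whether the CONTROL cultures received doxycycline is not given apart from the protocol that all samples share. On day 6, the cells carrying both E-cadherin and CXCR4 were sorted, and these were cultured further with doxycycline before RNA isolation. The replicates are described as biological, but how the clones and differentiations were divided among them is not given, so p-values measure the spread between these libraries.

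The libraries held 12279884 to 17331638 counts, and 3 counts, used as the smallest level that the depth can show, corresponded to 0.176 to 0.240 CPM (the usual scaling of counts, here by the normalised size of each library), a limit that covers counting error only. The Fox and Sox genes together took 0.141% to 0.166% of the counts. As a check of the labels, a row under the human identifier ENSG00000106031, which the files pair with no symbol, had 0 counts in each CONTROL library and 2497, 7666 and 6572 counts in HOXA13 replicates 1, 2 and 3, whereas mouse Hoxa13 had 10, 0 and 1 against 0, 5 and 1. CONTROL replicates 1 and 3 were more alike than either was to CONTROL replicate 2. Over the 37 tested genes, which are points within libraries and no replicates, the rank correlation (Spearman's rho) was 0.960 between CONTROL replicates 1 and 3, whereas CONTROL replicate 2 had 0.808 with the first of these and 0.867 with the other. With the HOXA13 libraries it was 0.807 to 0.888 for CONTROL replicate 1, 0.887 to 0.918 for CONTROL replicate 2 and 0.860 to 0.933 for CONTROL replicate 3. Values without CONTROL replicate 2, from a fit that leaves 2 CONTROL samples, are therefore given beside the results. That library was picked by its levels of the same genes, and the p-values and calls of this fit do not allow for the choice. Its p-values can be too small and its calls too many.

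Fox proteins bind DNA through a winged-helix (forkhead) domain, and Sox proteins bend it through an HMG box related to that of Sry. Lettered subfamilies share most of this domain and often overlap in function, so a cell type is usually marked by a combination of them. In the early embryo and the gut tube, individual members direct mesoderm, endoderm and neural fates, while the broadly expressed FoxO, FoxM and FoxK groups link transcription to growth signals, the cell cycle and metabolism.

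The stretches before the transcription starts of 4 Sox genes are shown. Sox4, Sox11 and Sox12, which form the SoxC subfamily, were chosen because they had lower mean levels in HOXA13 cells. The main edgeR fit with all libraries called none of them (adjusted p under 0.05), while Sox11 was called in 3 and Sox4 in 2 of 15 alternative fits. Sox13 was chosen because it had the largest difference of any member whose groups did not overlap. The sequences are RefSeq's on GRCm38.p6, all on the minus strand, 250 bases each and written 5′ to 3′, at chr13:28953700-28953949 (Sox4), chr12:27342719-27342968 (Sox11), chr2:152398047-152398296 (Sox12) and chr1:133424213-133424462 (Sox13). Capitals mark a match to the Fox motif TGTTTAC.
Sox4: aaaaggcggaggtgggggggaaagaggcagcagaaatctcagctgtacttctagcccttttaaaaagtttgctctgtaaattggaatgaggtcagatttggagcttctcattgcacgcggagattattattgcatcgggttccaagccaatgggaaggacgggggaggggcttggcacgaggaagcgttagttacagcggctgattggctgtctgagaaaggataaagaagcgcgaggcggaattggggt
Sox11: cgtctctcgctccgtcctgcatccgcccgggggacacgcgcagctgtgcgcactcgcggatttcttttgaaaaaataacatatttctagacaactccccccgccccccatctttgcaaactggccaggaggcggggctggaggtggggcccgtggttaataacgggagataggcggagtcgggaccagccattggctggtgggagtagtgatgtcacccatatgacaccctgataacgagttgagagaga
Sox12: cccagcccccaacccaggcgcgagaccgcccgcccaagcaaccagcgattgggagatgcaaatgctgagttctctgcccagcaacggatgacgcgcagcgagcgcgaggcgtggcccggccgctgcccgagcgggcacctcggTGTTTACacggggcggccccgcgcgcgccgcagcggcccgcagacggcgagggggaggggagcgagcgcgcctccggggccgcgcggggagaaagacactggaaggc
Sox13: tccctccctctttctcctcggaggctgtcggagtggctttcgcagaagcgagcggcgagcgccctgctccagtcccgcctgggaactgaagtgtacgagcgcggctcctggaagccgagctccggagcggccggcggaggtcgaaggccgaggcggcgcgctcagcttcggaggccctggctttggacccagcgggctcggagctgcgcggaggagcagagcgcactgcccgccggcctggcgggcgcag

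RefSeq's promoter table, which covers 250 bases before to 50 after each start, matched 36 of the 57 genes with 44 promoters. They were richer in G and C than promoters in general, with a median of 63.2% against 52.7%. Over all 300 bases of the promoter, and not only the stretch shown, the values were 52.0% for Sox4, 58.7% for Sox11, 76.7% for Sox12 and 73.3% for Sox13. Both strands were searched for 4 motifs. The posterior Hox motif CAATAAA was present in 2 of the 44 promoters (Foxr2 and Sox6), against 4.6% of all 32851 promoters, and the Hox13 motif TCGTAAA in 0 of the 44, against 0.597%. The Fox motif TGTTTAC was found in 1 promoter, that of Sox12, against 3.65% of all promoters, and the Sox motif AACAAT in 2 promoters, those of Foxp1 and Sox6, against 10.7%. These are matches of letters and not binding sites.

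None of the 37 tested genes was called with all 6 libraries (that is, passed edgeR's quasi-likelihood test, Benjamini-Hochberg adjustment over the 13600 genes tested, threshold 0.05). The smallest adjusted p-values were 0.0899 for Sox9, 0.0904 for Sox13 and 0.0999 for Sox11. Few genes were called at all, 42 of 13600 or 0.309%. An unadjusted p under 0.05 was reached by 11 of the 37 genes (29.7%), against 14.1% of all genes tested. DESeq2 called 4 of the 41 genes to which it gave an adjusted p (9.76%, against 5.05% of all genes), limma voom with sample quality weights called 10 of 37 (27.0%, against 15.4%), and edgeR with no filter on low counts called 2 of 54 (3.70%, against 0.921%). Without CONTROL replicate 2, edgeR called 11 of 40 genes (27.5%, against 14.2% of all genes).

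The HOXA13 values lay on both sides of the CONTROL values. There were 18 positive and 19 negative log2 fold changes (HOXA13 against CONTROL, here and below), with a median of -0.0047 against -0.013 over all genes tested. All 3 HOXA13 values were above all 3 CONTROL values for 6 genes, Sox13, Sox9, Sox21, Foxl2, Foxo4 and Foxo1 (16.2% of the tested Fox and Sox genes, against 11.5% of all genes). They were all below for 3 genes, Sox11, Sox12 and Foxq1 (8.11%, against 8.52%). Together this made 9 of 37 genes, or 24.3% against 20.0%, close to the share in the whole table. The fold changes, their standard errors and the overlap of the groups are plotted for 36 of the 37 genes.

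**Figure D1:**
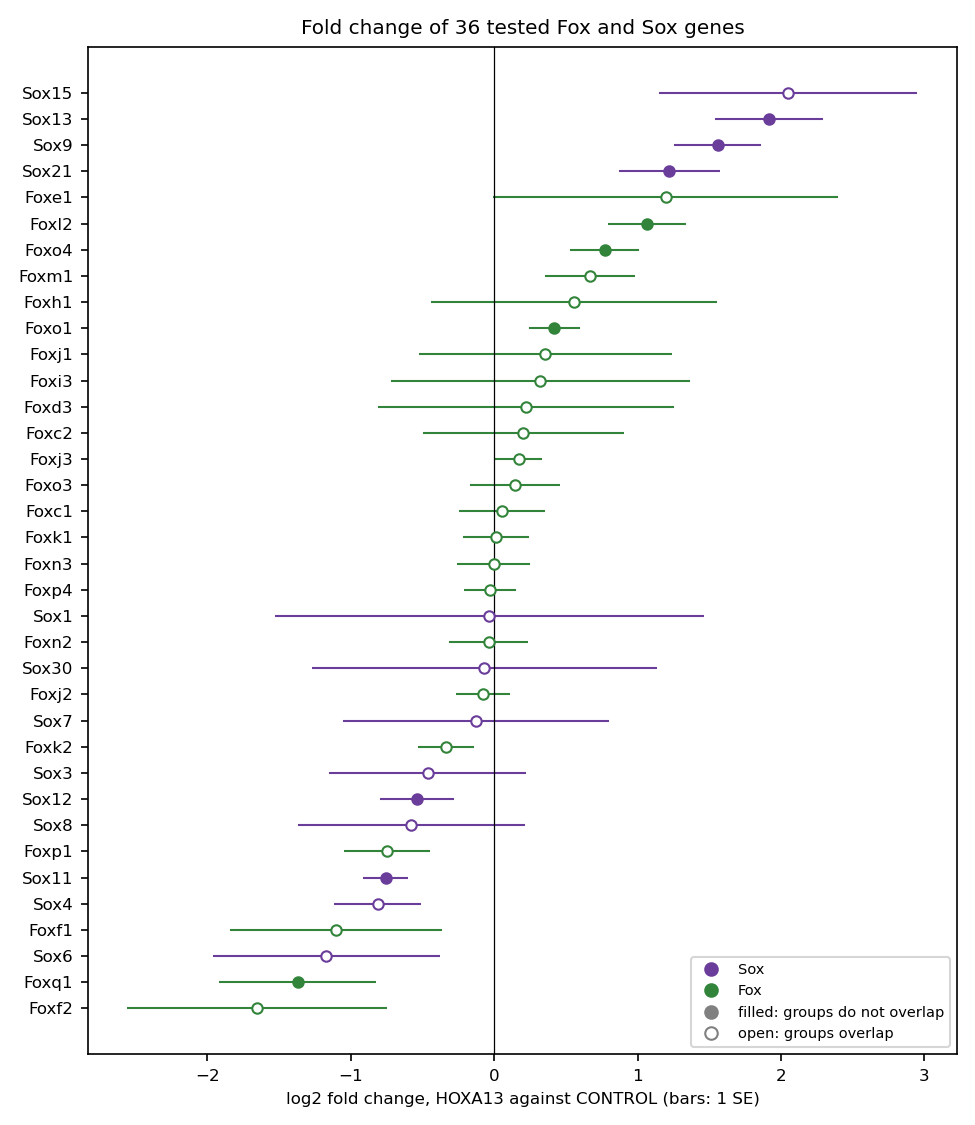
The horizontal axis gives the log2 fold change of HOXA13 against CONTROL from edgeR with a bar of 1 standard error, and each row is 1 of 36 tested genes, purple for Sox and green for Fox. Filled points are the 9 genes whose groups did not overlap, and the highest and lowest rows are Sox15 at 2.05 and Foxf2 at -1.65.

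Per kilobase of the GENCODE M1 gene model, the mean level over the 6 libraries was highest for the SoxC genes Sox11 (68.8 CPM per kb) and Sox4 (51.6 CPM per kb). Foxo4 (30.3 CPM per kb), Foxm1 (25.2 CPM per kb), Foxp4 (16.9 CPM per kb) and Foxh1 (16.9 CPM per kb) followed. Without CONTROL replicate 2, Foxh1 was at 13.4 CPM per kb, below Foxo1 (17.1 CPM per kb) and Foxk2 (16.8 CPM per kb). These levels depend on the M1 models, that of Sox11 being 2013 bases long, because the annotation used for counting is not stated. The levels of 19 genes with full statistics are plotted by library.

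**Figure D2:**
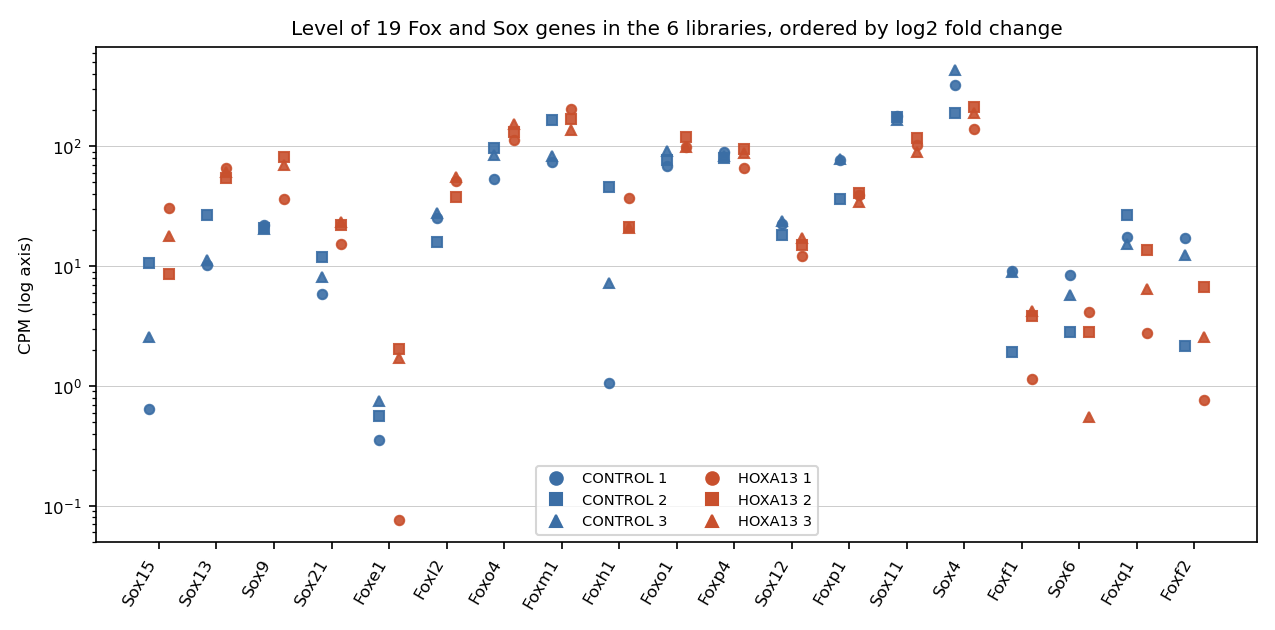
The vertical axis is CPM on a log scale, and each column is 1 of 19 Fox and Sox genes ordered by log2 fold change, with CONTROL in blue, HOXA13 in orange and a symbol for each replicate number. Sox13, Sox9, Sox21, Foxl2, Foxo4 and Foxo1 show the HOXA13 points above the CONTROL points, and Sox11, Sox12 and Foxq1 show them below.

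The SoxC genes Sox4, Sox11 and Sox12, transcriptional activators of embryonic neural and mesenchymal progenitors, all had lower mean values in HOXA13 cells. Sox11 (mm9, chromosome 12, 28025562 to 28027574, minus strand) measured 179, 177 and 167 CPM in the CONTROL libraries (replicates 1, 2 and 3, an order kept below) against 102, 117 and 89.5 CPM with HOXA13. Every HOXA13 value was below every CONTROL value, and CONTROL replicate 2 lay between the other CONTROL libraries. The means were 174 ± 6.60 CPM and 103 ± 13.8 CPM (SD, n = 3 each), a log2 fold change of -0.76 (SE 0.16). The adjusted p from edgeR was 0.0999, with 0.0154 without CONTROL replicate 2 and a range of 0.00402 to 0.513 over the 15 alternatives.

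Sox4 (chromosome 13, 29040788 to 29045582, minus strand) had 322, 189 and 436 CPM in CONTROL against 140, 212 and 188 CPM with HOXA13. CONTROL replicate 2 lay among the HOXA13 values, so the groups overlapped. The log2 fold change of Sox4 was -0.81 (SE 0.31; edgeR adjusted p = 0.285), and -1.09 with an adjusted p of 0.0109 without CONTROL replicate 2 (0.0109 to 0.654 over the alternatives). Sox12 had 22.6, 18.2 and 23.6 CPM in CONTROL against 12.2, 15.1 and 17.1 CPM with HOXA13, with no overlap. Its log2 fold change was -0.54 (SE 0.26; edgeR adjusted p = 0.406), or -0.66 without CONTROL replicate 2, and it was called in none of the alternatives.

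The SoxD genes, which lack an activation or repression domain of their own, had log2 fold changes of opposite sign. Sox13, known from lymphocyte and cartilage development (chromosome 1, 135278880 to 135320954, minus strand), had 10.1, 26.5 and 11.2 CPM in CONTROL against 65.3, 54.4 and 60.7 CPM with HOXA13. The lowest HOXA13 value lay above the highest CONTROL value, which was that of replicate 2. The means were 15.9 ± 9.14 and 60.1 ± 5.50 CPM (SD, n = 3 each), the log2 fold change was 1.92 (SE 0.38), and the edgeR adjusted p was 0.0904.

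Without CONTROL replicate 2 the log2 fold change of Sox13 was 2.48 with an edgeR adjusted p of 0.000624, and adjusted p-values over the 15 alternatives ranged from 0.000158 to 0.484. The median over genes of chromosome 1 was itself shifted, by 0.53 on the log2 scale. With each library offset by its median on each chromosome, Sox13 had a log2 fold change of 1.33 and an edgeR adjusted p of 0.211. Sox6, a partner of Sox9 in cartilage, had 8.37, 2.80 and 5.70 CPM in CONTROL against 4.15, 2.81 and 0.546 CPM with HOXA13. Its groups overlapped, with a log2 fold change of -1.17 (SE 0.79; edgeR adjusted p = 0.576) that was -1.51 without CONTROL replicate 2, ranged from -1.75 to -0.71 when single libraries were left out and was -2.24 in limma voom. Sox5, the other SoxD gene, was not tested, with at most 12 counts in a library.

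Among the SoxE genes, Sox9 had the smallest adjusted p of the whole set. Sox9 is the main regulator of cartilage and Sertoli cells and also marks intestinal crypts and pancreatic progenitors. Sox9 (chromosome 11, 112643538 to 112649074, plus strand) had 22.2, 20.6 and 20.3 CPM in CONTROL against 36.0, 80.7 and 69.4 CPM with HOXA13. The CONTROL values lay close together, and HOXA13 replicate 1 was the lowest of its group but still above all of them.

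The Sox9 means were 21.1 ± 1.01 and 62.0 ± 23.2 CPM (SD, n = 3 each). The log2 fold change was 1.56 (SE 0.30; edgeR adjusted p = 0.0899), with 1.53 and an adjusted p of 0.0175 without CONTROL replicate 2 (0.000466 to 0.496 over the 15 alternatives). With the chromosome offset Sox9 had 1.69. Sox8, its close relative, had 5.82, 2.40 and 2.33 CPM in CONTROL against 4.30, 1.93 and 0.849 CPM with HOXA13, which overlapped. Sox10, a neural crest gene, had at most 12 counts.

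Of 13 cartilage genes that Sox9 is known to activate and that are in the table, 8 were tested, of which 2 had positive and 6 negative log2 fold changes, with a median of -0.46. None was called by edgeR, 1 had an unadjusted p under 0.05 and DESeq2 called 1. Col2a1, the main cartilage collagen, had 7.52, 7.44 and 6.60 CPM in CONTROL against 7.61, 16.2 and 15.5 CPM with HOXA13 (log2 fold change 0.87), and the ubiquitin ligase gene Wwp2 had a log2 fold change of 0.12. The largest negative values were those of Col11a1, a fibrillar collagen (194, 4.96 and 111 CPM against 5.53, 3.75 and 3.09 CPM, -4.65), and Comp, a cartilage matrix gene (-1.69). Col11a1 was low in CONTROL replicate 2, as was the sum of mesenchymal and fibroblast markers (7062, 820 and 4992 CPM against 382, 1313 and 867 CPM), whose part in its value was not tested.

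Sox21, a SoxB2 repressor active beside the SoxB1 genes in neural and foregut progenitors (chromosome 14, 118632454 to 118636252, minus strand), had 5.89, 11.9 and 8.18 CPM in CONTROL against 15.1, 22.1 and 23.3 CPM with HOXA13. The groups did not overlap. The log2 fold change was 1.22 (SE 0.35; edgeR adjusted p = 0.179), and without CONTROL replicate 2 it was 1.51 with an adjusted p of 0.0205 (0.0108 to 0.614 over the alternatives). For chromosome 14 the median log2 fold change over genes was 0.33. By library, its median deviation from the gene means was -0.39, 0.20 and -0.32 in CONTROL against 0.22, 0.14 and 0.18 with HOXA13. CONTROL replicate 2 thus lay within the HOXA13 range for this chromosome. With the chromosome offset Sox21 had 0.92 and an edgeR adjusted p of 0.259.

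The SoxB1 genes, which hold neural progenitors undifferentiated, overlapped between the groups. Sox3 had 7.87, 36.1 and 4.58 CPM in CONTROL against 13.1, 10.7 and 11.3 CPM with HOXA13, so that CONTROL replicate 2 was above and the other CONTROL libraries below every HOXA13 library. Sox1 was near the limit of detection in most libraries, with 0, 3.04 and 0.225 CPM against 0.769, 0.703 and 1.70 CPM. Leaving out CONTROL replicate 2 moved the log2 fold change of Sox3 from -0.46 to 0.89 and that of Sox1 from -0.03 to 3.14, neither of them called.

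Sox15, the only SoxG gene and one expressed in embryonic stem cells and muscle precursors (chromosome 11, 69468816 to 69470229, plus strand), had the largest positive log2 fold change of the set, 2.05 (SE 0.90; edgeR adjusted p = 0.361). Its levels were 0.638, 10.6 and 2.55 CPM in CONTROL against 30.7, 8.61 and 17.95 CPM with HOXA13. CONTROL replicate 2 was above HOXA13 replicate 2, and without it the log2 fold change was 3.56 with an adjusted p of 0.0137 (0.0137 to 0.694 over the alternatives).

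Sox7 (SoxF, of the primitive endoderm and endothelium) had 0.709, 5.76 and 1.80 CPM against 2.31, 4.22 and 1.03 CPM, and Sox30 (SoxH, of the testis) had 2.06, 1.12 and 0.375 CPM against 0.0769, 1.23 and 2.06 CPM. Neither separated the groups.

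Of the FoxO genes, which Akt keeps out of the nucleus when growth factors are present, Foxo4 and Foxo1 were higher in every HOXA13 library than in any CONTROL library. Foxo4 (chromosome X, 98449867 to 98456212, plus strand) had 53.6, 96.1 and 84.6 CPM in CONTROL against 113, 132 and 154 CPM with HOXA13, with means of 78.1 ± 22.0 and 133 ± 20.6 CPM (SD, n = 3 each). Foxo4 had a log2 fold change of 0.77 (SE 0.24; edgeR adjusted p = 0.207), and 0.93 with an adjusted p of 0.0293 without CONTROL replicate 2 (0.0113 to 0.654 over the alternatives). Foxo1 had 67.9, 76.7 and 90.8 CPM in CONTROL against 97.8, 119 and 98.3 CPM with HOXA13, a log2 fold change of 0.42 (SE 0.18; edgeR adjusted p = 0.337), or 0.39 without CONTROL replicate 2, that no alternative called.

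Foxo3 had 56.5, 62.9 and 75.1 CPM in CONTROL against 41.6, 103 and 70.3 CPM with HOXA13, where the highest and the lowest value of all 6 libraries were both HOXA13. Of 24 regulators and targets of FoxO proteins, all tested, 12 had positive and 12 negative log2 fold changes, with a median of -0.004. None was called by edgeR or DESeq2, and 4 had an unadjusted p under 0.05 in edgeR. The largest values were 0.98 for Cdkn1b, which encodes the cell cycle inhibitor p27, 0.85 for the mitophagy gene Bnip3, -1.08 for the stress-response gene Sesn1 and -1.05 for Pdk4, a kinase that restrains pyruvate oxidation.

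Foxm1, the Fox factor of dividing cells that activates genes of mitosis, had 73.6, 164 and 83.5 CPM in CONTROL against 205, 169 and 138 CPM with HOXA13. CONTROL replicate 2 lay within the HOXA13 range and the other CONTROL libraries lay below it. In edgeR Foxm1 had a log2 fold change of 0.67 (SE 0.32; edgeR adjusted p = 0.397), and 1.10 with an adjusted p of 0.00802 without that library (0.00802 to 0.779 over the alternatives).

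In all 20 mitosis genes linked to Foxm1, CONTROL replicate 2 was above the other CONTROL libraries, and it was above every HOXA13 library in 12, within their range in 6 and below them in 2. CONTROL replicates 1 and 3 were both below every HOXA13 library in 18. Such counts were not made over all genes. Of these 20 genes, all tested, 19 had positive log2 fold changes, with a median of 0.45 against -0.013 over all genes, and edgeR called 0 of them with all libraries (2 with an unadjusted p under 0.05, 1 called by DESeq2) and 15 without CONTROL replicate 2, a fit that called 14.2% of all genes. Nek2, a centrosome kinase, had 29.3, 96.3 and 29.7 CPM in CONTROL against 166, 146 and 137 CPM with HOXA13, with a log2 fold change of 1.53. Cenpf, a kinetochore protein, had 40.1, 168 and 35.0 CPM against 274, 196 and 175 CPM, with a log2 fold change of 1.41. Both lie on chromosome 1. The single negative value was -0.36 for Skp2, a subunit of a ubiquitin ligase.

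Foxh1, which brings Smad proteins to the targets of Nodal and Activin, varied more between CONTROL libraries than between the groups. Its values were 1.06, 45.3 and 7.28 CPM in CONTROL against 36.9, 21.2 and 20.8 CPM with HOXA13. The highest and the 2 lowest values of all 6 libraries were thus CONTROL. Foxh1 had a log2 fold change of 0.56 (SE 1.00; edgeR adjusted p = 0.860). It was 2.64 with an adjusted p of 0.0341 without CONTROL replicate 2 and -0.03 without CONTROL replicate 1 (adjusted p 0.0341 to 0.9995 over the alternatives).

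The genes of Nodal and Activin signalling around Foxh1 were divided as well. Of the 12 tested, 6 had positive and 6 negative log2 fold changes (median 0.06), and none was called by edgeR, while 1 had an unadjusted p under 0.05 and DESeq2 called 1. Lefty1, a Nodal antagonist, had 0, 4.00 and 0.900 CPM in CONTROL against 11.7, 7.38 and 10.1 CPM with HOXA13 (log2 fold change 2.58), and the mesendoderm gene Mixl1 had a log2 fold change of 2.09. Both lie on chromosome 1. The value of -3.34 for the Nodal co-receptor gene Tdgf1 rested on 27.7 CPM in CONTROL replicate 2, as no other library was above 2.08 CPM.

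Foxl2, known as the factor that maintains ovarian granulosa cells, had 25.3, 15.8 and 27.7 CPM in CONTROL against 51.4, 37.7 and 54.9 CPM with HOXA13. No values overlapped, with means of 22.9 ± 6.30 and 48.0 ± 9.07 CPM (SD, n = 3 each). The log2 fold change of Foxl2 was 1.07 (SE 0.27; edgeR adjusted p = 0.148), and 0.84 with an adjusted p of 0.0387 without CONTROL replicate 2, where it was lowest (0.0248 to 0.564 over the alternatives). Foxl2os is transcribed from the opposite strand beside it (chromosome 9, 98849574 to 98855729, against 98856026 to 98858545 for Foxl2) and had 26.0, 15.1 and 29.9 CPM in CONTROL against 45.6, 36.6 and 45.2 CPM with HOXA13 (log2 fold change 0.84, SE 0.28; edgeR adjusted p = 0.239). The strand setting of the counting is not stated, so reads of this pair may not be fully separated.

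Foxf1 and Foxf2, the Fox genes of gut and lung mesenchyme, were highest in CONTROL replicates 1 and 3. Foxf2 had 17.02, 2.16 and 12.5 CPM in CONTROL against 0.769, 6.68 and 2.55 CPM with HOXA13, the largest negative log2 fold change of the set at -1.65 (SE 0.90; edgeR adjusted p = 0.476). Foxf1 had 9.08, 1.92 and 8.85 CPM against 1.15, 3.87 and 4.18 CPM, a log2 fold change of -1.10 (SE 0.74; edgeR adjusted p = 0.573). In both genes CONTROL replicate 2 lay within the HOXA13 range. Without it the values were -2.14 for Foxf2 and -1.55 for Foxf1, and no alternative called either.

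Foxq1, a factor linked to epithelial plasticity and gastric mucus cells, had 17.4, 26.5 and 15.4 CPM in CONTROL against 2.77, 13.6 and 6.49 CPM with HOXA13. It was the only tested Fox gene whose HOXA13 values were all below the CONTROL values, and CONTROL replicate 2 was its highest library. Foxq1 had a log2 fold change of -1.37 (SE 0.55; edgeR adjusted p = 0.315), or -1.11 without CONTROL replicate 2 and -2.11 to -0.99 over the left-out libraries, and no alternative called it.

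FoxP proteins bind DNA as dimers and mostly repress transcription, and the tested FoxP genes differed from each other. Foxp1 had 77.2, 36.5 and 78.2 CPM in CONTROL against 39.3, 40.8 and 34.3 CPM with HOXA13, so that CONTROL replicate 2 fell among the HOXA13 values. Foxp1 had a log2 fold change of -0.75 (SE 0.30; edgeR adjusted p = 0.316), and -1.04 with an adjusted p of 0.00581 without that library (0.00581 to 0.702 over the alternatives). Foxp4 had 90.3, 79.6 and 83.1 CPM against 66.2, 93.9 and 87.3 CPM and a log2 fold change of -0.03 (SE 0.18; edgeR adjusted p = 0.965), or -0.09 without CONTROL replicate 2, whose sign turned without HOXA13 replicate 1 (0.09) and in limma voom (0.03).

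Foxj1 was low, at 0.426 to 4.00 CPM, with a log2 fold change of 0.36 (SE 0.88), or 1.37 without CONTROL replicate 2. Apart from Foxj1, the tested FoxK, FoxJ and FoxN genes are broadly expressed and had small log2 fold changes. Among these 6, that of Foxk2 was the farthest from 0. Foxk1 and Foxk2, which repress autophagy genes, had log2 fold changes of 0.01 (SE 0.23) and -0.34 (SE 0.20). That of Foxk2 was -0.48 without CONTROL replicate 2 (edgeR adjusted p = 0.113, the lowest of 0.113 to 0.850 over the alternatives) and -0.18 with the chromosome offset. The median log2 fold change over genes of its chromosome 11 was -0.18. By library, the median deviation of chromosome 11 was 0.38, -0.12 and -0.036 in CONTROL against -0.089, -0.052 and -0.062 with HOXA13, so only CONTROL replicate 1 was above 0. For Foxj2 and Foxj3 the log2 fold changes were -0.08 (SE 0.19) and 0.17 (SE 0.16), and for Foxn2 and Foxn3 they were -0.04 (SE 0.27) and -0.005 (SE 0.26). Without CONTROL replicate 2 the values of the 5 genes other than Foxk2 lay between -0.20 and 0.09. In each of the 6 genes the values of the groups overlapped. These values do not show that the levels were equal, since each carries a standard error of 0.16 to 0.27.

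Foxc1, a regulator of paraxial and vascular mesoderm, had 15.7, 10.1 and 11.2 CPM in CONTROL against 11.7, 13.0 and 13.8 CPM with HOXA13. The Fox genes that follow were low, at no more than 4.00 CPM in any library, and none separated the groups. The lowest values of Foxd3 and Foxe1 were below the level of 3 counts. Foxc2 (1.35 to 3.44 CPM), Foxd3 of the neural crest (0.142 to 2.16 CPM), Foxi3 of the ectoderm (0.567 to 3.77 CPM) and Foxj1, the regulator of motile cilia (0.426 to 4.00 CPM), had their lowest values in CONTROL replicate 1. Foxe1, of the thyroid and the oral epithelium, had 0.355, 0.560 and 0.750 CPM in CONTROL against 0.0769, 2.05 and 1.70 CPM with HOXA13, a log2 fold change of 1.20 (SE 1.20; edgeR adjusted p = 0.734) near the level of 3 counts, or 1.19 without CONTROL replicate 2.

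The remaining 20 genes had too few counts to be tested. Foxe3, Foxi2 and Foxr2 had no count in any library, which allows at most the level of 3 counts, and Foxb2, Foxs1 and Foxi1 had at most 2, 4 and 6 counts in a library. The highest counts of the other 14 lay between 10 and 30, with 30 for Sox14, a SoxB2 gene, 26 for Foxa3, a gut and liver endoderm gene, and 19 for both Foxo6 and the vascular gene Sox18. The immune regulator Foxp3 had at most 13 counts.

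The pattern by library is shown for 36 of the tested genes. Over all 37, CONTROL replicate 1 was the lowest of the 6 libraries in 13 genes and HOXA13 replicate 1 in 12, whereas HOXA13 replicate 2 was lowest in 0. CONTROL replicate 2 was the highest library in 9 genes, and Foxh1, Sox3 and Foxq1 were among them. CONTROL replicate 1 and HOXA13 replicate 2 were highest in 7 each, CONTROL replicate 3 in 6, and HOXA13 replicates 1 and 3 in 4 each. The same counts were not made over all genes tested.

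**Figure D3:**
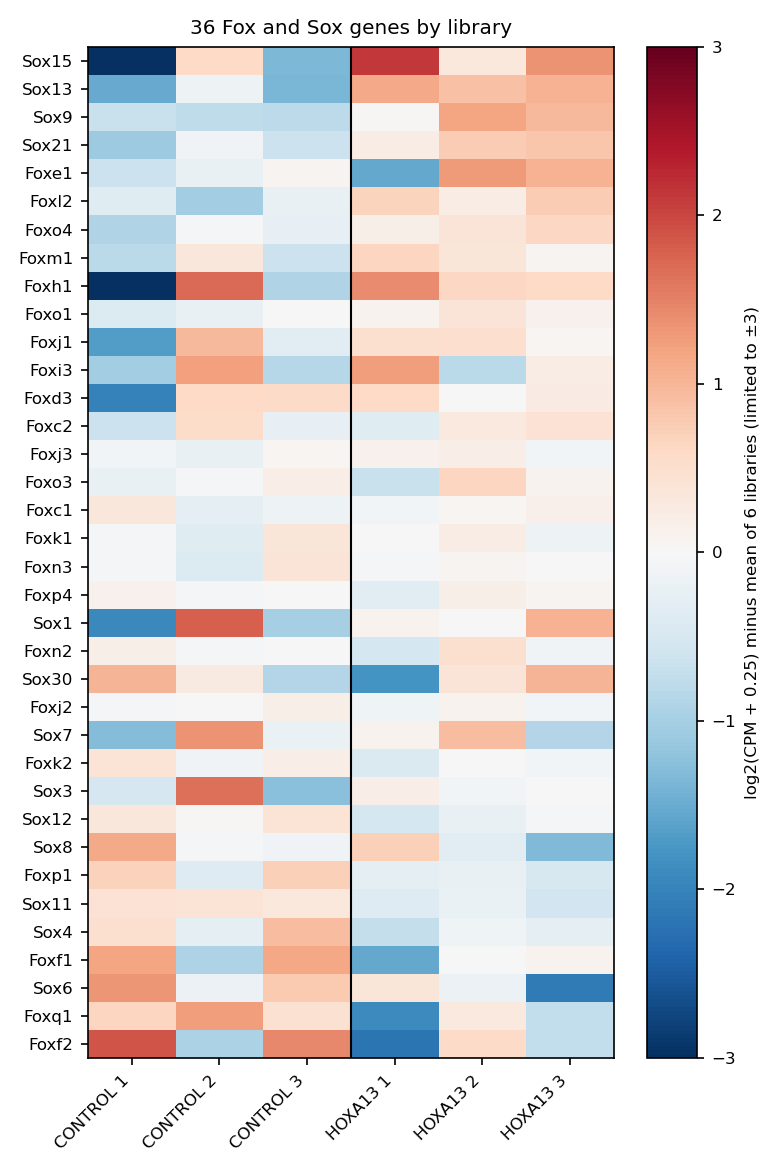
Rows are 36 tested genes in order of log2 fold change and columns the 6 libraries, with colour for log2(CPM + 0.25) minus the mean of the 6 libraries, limited to 3 in either direction. CONTROL replicate 2 is red for Foxh1, Sox3 and Sox1, where CONTROL replicate 1 is blue, and blue for Foxf1 and Foxf2, where CONTROL replicates 1 and 3 are red.

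The 11 genes called without CONTROL replicate 2 were Sox13, Sox9, Sox15, Sox21, Foxh1, Foxm1, Foxo4 and Foxl2, all higher in HOXA13 cells, and Sox4, Sox11 and Foxp1, all lower. These calls do not allow for the choice of that library. The values of Sox9 (1.53 against 1.56) and Sox11 (-0.76 in both fits) barely moved when the library was left out, and that of Foxl2 moved towards 0 (0.84 against 1.07). Those of Sox15 (2.05 to 3.56) and Foxh1 (0.56 to 2.64) moved most among the called genes. Leaving out any other single library gave 0 called Fox and Sox genes in edgeR, although 5 to 11 of the 40 to 43 tested had an unadjusted p under 0.05. Those fits called 0 to 7 of all 14087 to 14181 genes tested, of which 1100 to 1543 had an unadjusted p under 0.05.

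**Figure D4:**
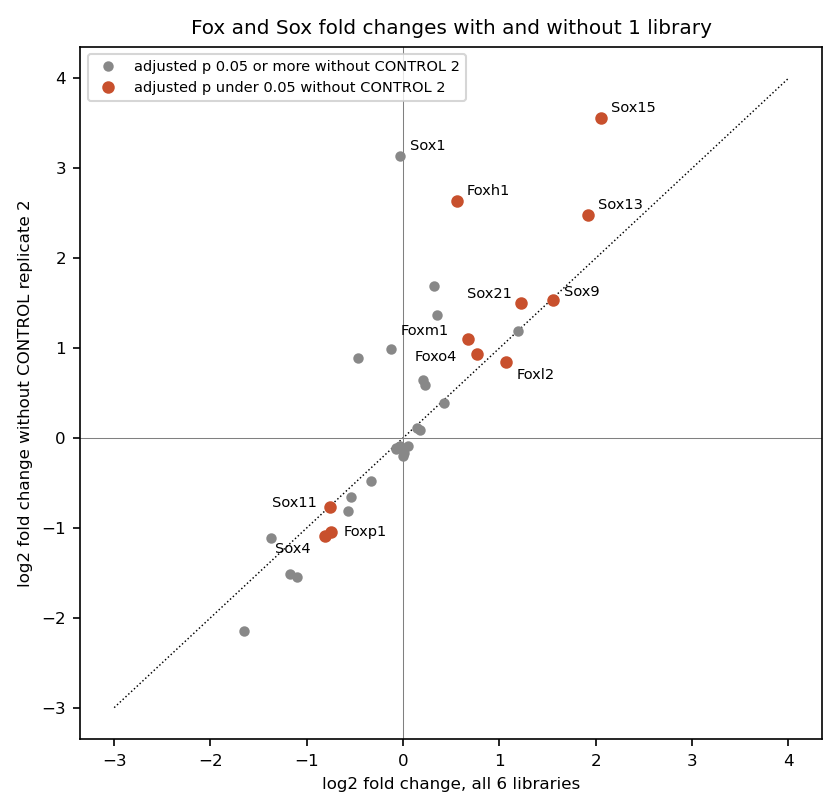
The horizontal axis is the log2 fold change from all 6 libraries and the vertical axis that without CONTROL replicate 2, for 36 genes, with the dotted line marking equal values. Orange points are the 11 genes with an adjusted p under 0.05 without that library. Sox1 (-0.03 and 3.14), Foxh1 and Sox15 lie farthest above the line.

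Markers of other cell types also differed between the libraries. The labelled cell type was only partly marked, as the definitive endoderm gene Cer1 had no count and the summed level of 16 endoderm markers was 163 to 200 CPM in CONTROL and 88.2 to 129 CPM in HOXA13 cells. This difference rested on Eomes (89.0, 49.0 and 111 CPM against 24.4, 41.9 and 33.0 CPM), as the sums without it, 77.1 to 114 CPM and 55.2 to 86.9 CPM, overlapped. Of the 12 endoderm markers tested, 6 had positive and 6 negative log2 fold changes, with a median of 0.13. All 20 epithelial markers had positive log2 fold changes, none of them called by edgeR (14 with an unadjusted p under 0.05), and their sum was 2418, 8930 and 6034 CPM in CONTROL against 11370, 11550 and 13230 CPM with HOXA13. The 20 mesenchymal and fibroblast markers summed to 7062, 820 and 4992 CPM in CONTROL against 382, 1313 and 867 CPM with HOXA13, and 17 of the 19 tested had negative log2 fold changes. In bulk samples, fewer cells of a type and less RNA per cell cannot be told apart.

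Foxf2 had its 6 libraries in exactly the order of the mesenchymal sum, and Foxf1 differed from it only in the order of HOXA13 replicates 2 and 3. The 12 pluripotency markers summed to 126, 1593 and 226 CPM in CONTROL against 989, 543 and 550 CPM with HOXA13, and Foxh1 and Sox3 shared with them the highest value in CONTROL replicate 2 and the next in HOXA13 replicate 1. The part of these cell types in the Fox and Sox values was not tested.

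**Figure D5:**
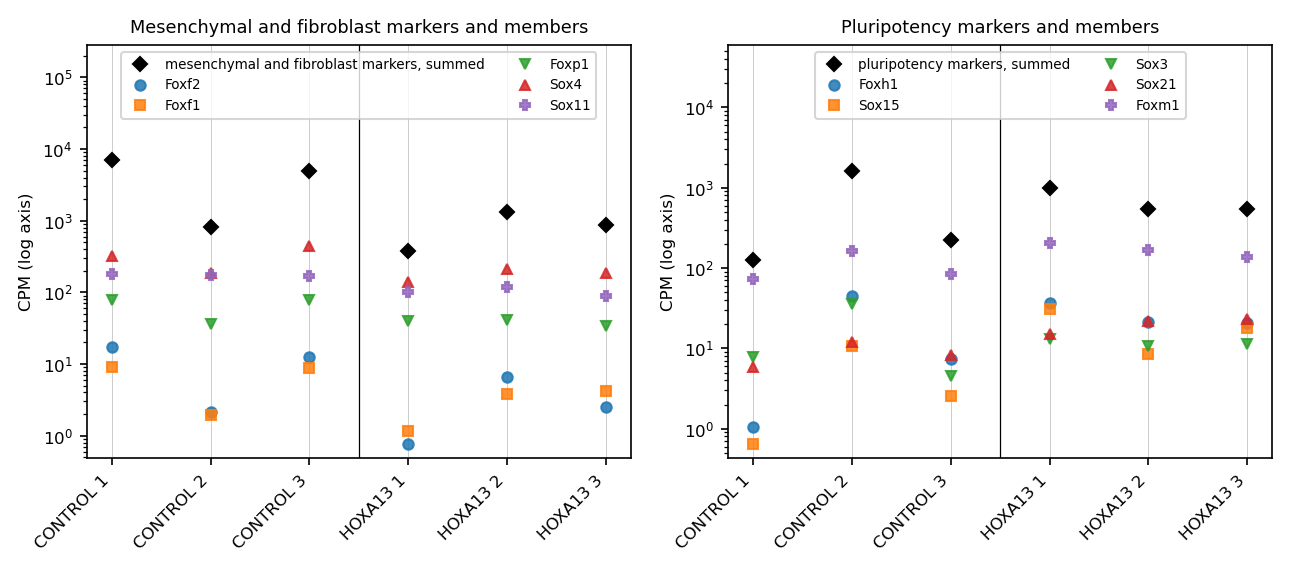
Each panel gives CPM on a log axis in the 6 libraries, with black diamonds for the summed marker genes and coloured symbols for 5 Fox and Sox genes. On the left, the mesenchymal sum, Foxf1, Foxf2, Foxp1 and Sox4 are lower in CONTROL replicate 2 than in the other CONTROL libraries, while Sox11 is level there. On the right, the pluripotency sum, Foxh1, Sox15, Sox3, Sox21 and Foxm1 are higher in CONTROL replicate 2 than in the other CONTROL libraries.

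The other marker lists were summed in the same way. Whether the M15 feeder cells express the 10 genes listed as their markers was not tested. These genes summed to 18.4 to 23.6 CPM in CONTROL and 8.12 to 13.0 CPM in HOXA13 cells. Extraembryonic endoderm markers, which include Sox7, summed to 1578 to 3745 CPM and 1196 to 1542 CPM. Nearly all of this came from the matrix genes Sparc (2797, 1138 and 2225 CPM against 730, 805 and 755 CPM) and Lamb1 (399 to 801 CPM over the 6 libraries), without which the sums were 40.4 to 155 CPM and 31.3 to 51.9 CPM and overlapped, and Afp, Ttr and Apoa4 had no count. Endothelial markers summed to 106 to 174 CPM and 66.3 to 80.7 CPM, and neural and neural crest markers to 269 to 562 CPM and 172 to 229 CPM. Of the endothelial markers, Kdr alone had 66.8 to 137 CPM in CONTROL and 27.9 to 44.3 CPM in HOXA13 cells. Muscle markers summed to 21.0 to 39.4 CPM and 22.5 to 63.2 CPM.

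Groucho and other corepressors that Fox and Sox proteins recruit showed no called gene in edgeR or DESeq2, and 2 had an unadjusted p under 0.05 in edgeR. Of 13 tested, 9 had positive log2 fold changes, with a median of 0.10. The largest were 1.66 for Tle2 and 1.15 for Tle6, both Groucho genes, and the nuclear receptor corepressor gene Ncor1 had -0.24. Without CONTROL replicate 2, 3 of the 13 were called, against 14.2% of all genes.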

How the data were processed

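The deposited files hold raw read counts per gene symbol, 1 per library, which the authors made from stranded poly-A libraries (75-base reads) on mm9 with HTSeq 0.6.1p1 after bcl2fastq 2.17 and TopHat2 2.0.14, versions from the submitters' processing notes. Neither the annotation nor the strand setting nor the handling of multiply aligned reads is given in the sources used here, which leaves overlapping, antisense and near-identical genes uncertain. The filter was filterByExpr by group (minimum count 10, total 15) and the scaling TMM, and HOXA13 was compared with CONTROL by glmQLFit and glmQLFTest of edgeR 4.0.16 (R 4.3.3), at the defaults of that release and with no other term, the p-values being adjusted by Benjamini and Hochberg over the 13600 genes kept. The biological coefficient of variation was 41.5%. No fold change limit was used.

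The alternatives used DESeq2 1.42.0, limma 3.58.1 (voom with sample quality weights), other scalings, filters and edgeR settings, a chromosome offset, a replicate block and each library left out. The code was tested on simulated data. Members and gene lists were chosen with earlier results of these data known. Full statistics are given for members past the threshold or without overlap between groups, the 8 largest log2 fold changes in each direction and the 6 highest levels per kb, and of other lists the 2 largest in each direction are named. The values of 3 genes within this rule are not reported here. Eomes, Sparc, Lamb1 and Kdr were singled out after their values were seen. Positions and lengths are those of GENCODE M1, and 36 of the 37 tested genes had one.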

Additional observations from a re-analysis of the deposited data

How the results depend on the processing

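Of the 20 genes with full statistics, 18 kept the sign of their log2 fold change in every alternative. The exceptions were Foxp4, at 0.031 in limma voom and from -0.16 to 0.092 when single libraries were left out, and Foxh1, from -0.030 to 2.64 when single libraries were left out. The cause was not tested. The number of Fox and Sox genes called higher was 0 in the main edgeR fit and 2 in edgeR without a filter on low counts. It was 3 in DESeq2 and 7 in limma voom, and ranged from 0 to 8 in edgeR when single libraries were left out. The number called lower was 0 in the main edgeR fit, with 1 in DESeq2, 3 in limma voom and 0 to 3 when single libraries were left out. In both cases the highest value was that without CONTROL replicate 2. Of all genes, 117 were called higher and 46 lower without the filter, 445 and 277 in DESeq2, 1239 and 862 in limma voom, and 1116 and 890 without CONTROL replicate 2. Genes without overlap numbered 9 with all libraries and from 9 to 23 when 1 was left out. There were 14 without CONTROL replicate 1 (32.6% of the tested members, against 25.9% of all genes) and 23 without CONTROL replicate 2 (57.5% against 48.7%). Without CONTROL replicate 3 there were 9, a share below that of all genes (22.5% against 26.7%). Leaving out HOXA13 replicate 1, 2 or 3 gave 13 (31.0% against 29.6%), 15 (35.7% against 27.8%) and 12 (27.9% against 24.9%). DESeq2 called 1 gene in the Foxm1-linked mitosis list, 1 in the Sox9 cartilage list and 1 in the Foxh1 and Smad list. When single libraries were left out, 0 to 15 of the mitosis genes, 0 to 2 of the FoxO genes, 0 to 1 of the cartilage genes, 0 to 3 of the Foxh1 and Smad genes and 0 to 3 of the corepressors were called, the highest value of each without CONTROL replicate 2. With a replicate block edgeR called 0 Fox and Sox genes, with 7 at an unadjusted p under 0.05 against 11 without it, and 0 of all genes, with 1392 at an unadjusted p under 0.05. The deviations of same-numbered libraries correlated at -0.21, -0.27 and 0.10. With 3 libraries per group, these values cannot tell whether the replicate numbers pair the libraries. Most low members could not be tested at this depth.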
